A study of Mus musculus with 92 samples.

Results

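The PGC-1, ERR and PPAR regulators are the transcription factors and coactivators that set the oxidative capacity of muscle, and 8 of their genes were followed here across the quadriceps of 92 mice. The members were taken by name: Ppargc1a and Ppargc1b, Esrra and Esrrg, Ppara and Ppard, Tfam and Nrf1. All 8 were found among the 13441 genes of the expression table, and none was lost to a filter on low values. The animals were DOz mice, an outbred stock, of about 18 to 20 weeks of age, all kept on standard chow for life and all in 1 group. Total RNA from the quadriceps, the large thigh muscle, was made into mRNA sequencing libraries. No treatment, genotype contrast or time course is given in the labels, so each comparison below is of covariation between animals. Each library title was taken as 1 animal, and the animal numbers used below are names only.

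PGC-1 proteins do not bind DNA themselves. They dock on nuclear receptors such as the oestrogen-related receptors (ERR) and the peroxisome proliferator-activated receptors (PPAR), and on factors such as NRF1, and raise transcription of genes for respiration and fat oxidation. ERRs act without a known natural hormone, PPARs respond to fatty acids, NRF1 acts on promoters of respiratory chain genes, and TFAM packages mitochondrial DNA and helps start its transcription. In skeletal muscle the group is known for its response to exercise and fasting and for its part in slow and oxidative fibres.

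The labelled tissue was checked against fibre and other markers. Fast-fibre markers summed to a log2 level of 16.66 to 17.61 in the 92 libraries, and slow-fibre markers to 6.29 to 10.7, while adipocyte markers reached 8.93 to 11.62, macrophage markers 5.49 to 9.20 and endothelial markers 7.26 to 8.50. Blood markers ran from 7.46 to 14.62 and fibroblast markers from 8.92 to 11.23. Most of the adipocyte sum came from Car3, Plin4 and Fabp4, at mean levels of 9.35, 7.83 and 7.51. The next highest marker, Cfd, had a mean of 4.23, and Adipoq had 3.9, so the sum says little about those weaker markers. In bulk muscle, fewer cells of a type and less RNA per cell cannot be told apart. A pair of libraries stood apart by more than 3 SD on a principal component of all genes. Animal 69, at 4.95 SD on the second component, had the lowest Esrra and Ppara, the second lowest Ppargc1a, Esrrg and Ppard, the lowest adipocyte, endothelial and Schwann cell marker sums and the second lowest blood sum, while its macrophage sum ranked 90 of 92 from the lowest. Animal 84, at 3.87 SD on the first component, had the lowest Ppard and Nrf1, the highest macrophage sum and the lowest fast-fibre sum.

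Of the coactivators, Ppargc1a (ENSMUSG00000029167, chr5:51454250-51567726, minus strand, GRCm38) had the most uneven level of the 8. On the log2 per-million scale its lowest animal was at 4.54, its median at 5.55 and its highest at 8.30, a 13.6-fold range, with a mean of 5.61 ± 0.64 (SD, n = 92). The tail was on the upper side: 9 animals lay at least 1 log2 unit above the median and 1 lay that far below it. Animal 19, the highest, was 1.02 above the next animal at 7.27. A trend over all genes gave an SD of 0.21 at this expression level, and the excess of Ppargc1a over it lay at percentile 98.2 of all genes.

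Its paralogue Ppargc1b (ENSMUSG00000033871, chr18:61298136-61400431, minus strand), which encodes the related coactivator PGC-1 beta, was weaker and more even. It ran from 1.66 over a median of 2.81 to 3.82, with a mean of 2.78 ± 0.44 (SD, n = 92), and its spread was at percentile 75.4 for its level. Both of its lowest animals, 83 and 1 at 1.66 and 1.67, were set off from the other 90 by 0.34.

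Among the nuclear receptors, the ERR genes had unlike spreads. Esrra (ENSMUSG00000024955, chr19:6910977-6921813, minus strand), for the receptor that acts with PGC-1 on respiratory chain genes, kept within a 1.95-fold range, from 5.04 over 5.57 to 6.01, with a mean of 5.56 ± 0.20 (SD, n = 92). Its exons share 73 bases with Trmt112 on the opposite strand, and 91 bases with ENSMUSG00000098413 on the same strand, which is not among the genes of the table, and reads from those stretches could not be told apart here. Esrrg (ENSMUSG00000026610, chr1:187608791-188214885, plus strand), for a receptor known for its high level in oxidative muscle, had a 6.55-fold range from 2.49 over 4.21 to 5.20, with a mean of 4.17 ± 0.42 (SD, n = 92). Its lower tail held animal 1 at 2.49 and animal 69 at 2.99, and the spread of Esrrg was at percentile 89.7 for its level against percentile 46.1 for Esrra.

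The PPAR genes were likewise unlike in spread. Ppara (ENSMUSG00000022383, chr15:85734983-85802819, plus strand), for the receptor of fat oxidation genes, ran from 0.66 over 2.63 to 3.66, an 8.0-fold range with a mean of 2.55 ± 0.62 (SD, n = 92). It had a tail on the lower side, with 9 animals at least 1 log2 unit below the median and 2 that far above. Ppard (ENSMUSG00000002250, chr17:28232700-28301474, plus strand), for the other PPAR of fat oxidation in muscle, ran from 4.10 over 4.70 to 5.18 with a mean of 4.71 ± 0.19 (SD, n = 92). Its spread was at percentile 29.7 for its level, against percentile 90.5 for Ppara.

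Tfam and Nrf1 varied least for their level. Tfam (ENSMUSG00000003923, chr10:71225464-71238280, minus strand) ran from 5.26 over 5.67 to 6.07, with a mean of 5.67 ± 0.16 (SD, n = 92), and its spread was at percentile 16.9. Nrf1 (ENSMUSG00000058440, chr6:30047988-30153458, plus strand) ran from 2.60 over 3.12 to 3.70, with a mean of 3.11 ± 0.20 (SD, n = 92), at percentile 6.48.

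**Figure D1:**
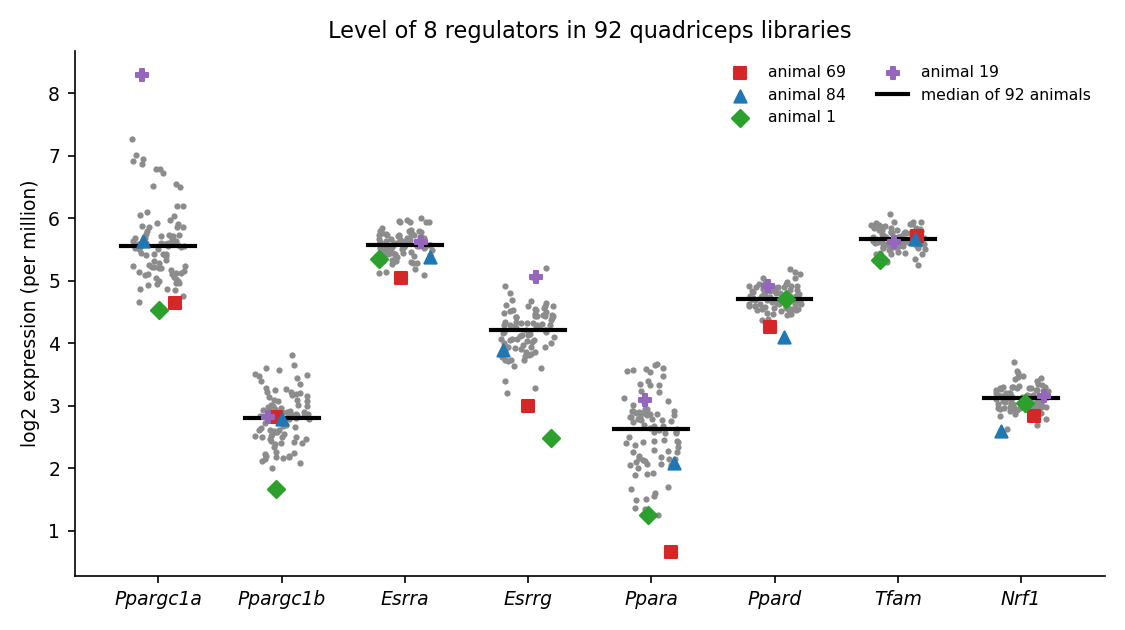
Each point is 1 of 92 animals, the vertical axis is the log2 per-million level, the bar is the median, and 4 animals that lie far out for a regulator are marked. Ppargc1a has an upper tail ending at 8.30, Esrrg and Ppara have lower tails ending at 2.49 and 0.66, and Tfam, Nrf1, Ppard and Esrra stay within narrow bands.

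Levels of different genes were set side by side only per kilobase of exon, as a log2 level per kilobase. The length was that of the merged exons of all annotated transcripts, such as 10282 bases over 20 transcripts for Nrf1. Which transcripts the muscle makes was not measured, and the exact scaling of the values is unknown, so the order depends on this length. The order was Tfam at 3.52, Esrra at 3.43, Ppargc1a at 2.89, Ppard at 1.8, Esrrg at 1.54, Ppargc1b at 0.78, Ppara at 0.61 and Nrf1 at -0.25. Taken within each animal, the step from Ppargc1a down to Ppard was 1.09 ± 0.64 (SD, n = 92) and held in 91 animals. The step from Esrrg to Ppargc1b was 0.76 ± 0.50 and held in 87 animals, and that from Ppara to Nrf1 was 0.86 ± 0.63 and held in 83 animals. The other steps were smaller than their SD: Tfam over Esrra was 0.09 ± 0.25 and held in 59 animals, and Esrra over Ppargc1a was 0.54 ± 0.66 and held in 81. Ppard over Esrrg was 0.26 ± 0.45 and held in 65 animals, and Ppargc1b over Ppara was 0.18 ± 0.75 and held in 56.

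The sample titles carry numbers that fall into 5 runs of 33, 14, 21, 11 and 13 animals, and these runs were treated as a possible batch, although no label explains them. None of the 8 regulators differed between the runs in limma's F test over all genes, in which 2 of 13441 genes passed, or 0.0149%. Unadjusted, 3 of the 8 had a p under 0.05, but the share of all genes at that unadjusted threshold is not given here. Ppargc1a came nearest, with run means of 5.32, 6.0, 5.61, 6.04 and 5.58, a p-value of 0.000925 and an adjusted p of 0.288. Ppara had an adjusted p of 0.573 and Tfam of 0.598.

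Of the 28 pairs of regulators, 23 were positively correlated over the 92 animals, with a median Pearson r of 0.128. The p-values beside r and rho are two-sided permutation tests of 100000 resamples, whose smallest possible value is 1e-05, and 9 pairs had one under 0.05 for r. Adjustment was over all genes of the table in limma, and 4 pairs passed at an adjusted p of 0.05 whichever gene was the predictor. Over all genes, those with an unadjusted limma p under 0.05 numbered from 1282 of 13440 on Tfam to 4112 on Ppara. Adjusted, 17.4% of genes passed on Ppara, 7.46% on Esrrg, 7.43% on Ppargc1a, 5.71% on Ppargc1b and 0.0% on Tfam. The pair counts were not tested against these shares.

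Ppara took part in both of the closest pairs. Ppargc1a and Ppara rose together with r = 0.535 (p = 1e-05) and rho = 0.633 (p = 1e-05) and an adjusted p of 1.86e-05. The correlation was positive in all 5 title runs, from 0.378 to 0.585, and was 0.52 without animals 69 and 84. Esrrg and Ppara rose together with r = 0.545 (p = 1e-05), rho = 0.471 (p = 1e-05) and an adjusted p of 7.45e-06. Within the runs r was 0.188 to 0.73, and leaving out animals 1 and 69, the extremes of Esrrg, gave 0.452.

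Esrrg was tied to each coactivator more loosely. With Ppargc1a, r was 0.33 (p = 0.00172), rho was 0.236 (p = 0.0242) and the adjusted p was 0.0249, and the runs gave -0.126 to 0.791, so the relation did not hold in each of them. With Ppargc1b, r was 0.317 (p = 0.00207), rho was 0.23 (p = 0.0278) and the adjusted p was 0.0384. Without its 2 farthest animals the Ppargc1b pair had r = 0.239, and the Ppargc1a pair had r = 0.25 without the 2 farthest animals of Esrrg.

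No pair of relatives within a family passed in both directions. Ppargc1a and Ppargc1b had r = -0.137 (p = 0.195) and an adjusted p of 0.476, with both signs among the title runs (-0.501 to 0.527). Esrra and Esrrg had r = 0.286 (p = 0.00561) and an adjusted p of 0.134, the larger of its 2 directions. Ppara and Ppard had r = 0.285 (p = 0.00568), with an adjusted p of 0.0399 for Ppard fitted on Ppara, which passed, and of 0.0564 for Ppara on Ppard. Neither pair kept 1 sign in all runs. Tfam and Nrf1 had r = 0.0152 (p = 0.887). Ppargc1a and Esrra, which act together on respiratory chain promoters, had r = 0.0659 (p = 0.532) and an adjusted p of 0.844.

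**Figure D2:**
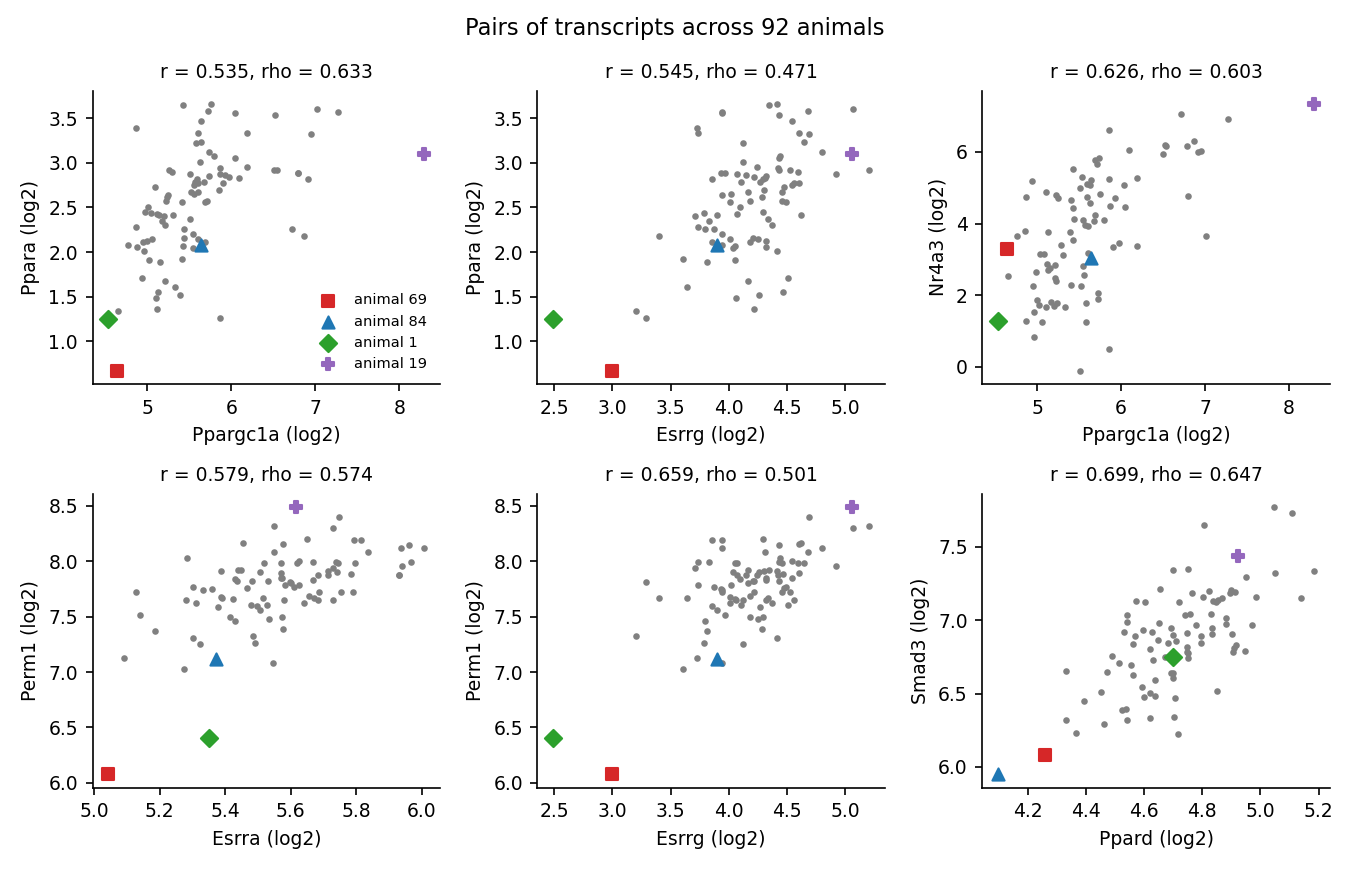
Each point is 1 of 92 animals, both axes are log2 per-million levels, r is Pearson's and rho Spearman's, and the marked animals are those of the plot of levels. Ppara rose with Ppargc1a and with Esrrg, Nr4a3 rose with Ppargc1a, Perm1 rose with Esrra and Esrrg, and Smad3 rose with Ppard, while animals 1 and 69 lie at the low end of the panels of Ppara, Esrrg and Perm1.

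Next, every other gene was fitted on each regulator, and the slope is the log2 change of a gene per SD of that regulator (± SE). The 8 fits use the same 92 animals, so their counts are given side by side and were not compared. At an adjusted p of 0.05 over 13440 genes, Ppara was associated with 2341 genes (17.4%), Ppard with 1110 (8.26%), Esrrg with 1002 (7.46%), Ppargc1a with 999 (7.43%), Ppargc1b with 767 (5.71%) and Esrra with 215 (1.6%). No gene passed on Tfam or on Nrf1 in limma, the only tool run, with 1282 and 1394 genes at an unadjusted p under 0.05. The median slope over all genes was between -0.004 and 0.003 for each of the 8.

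Several of these counts rest on a few animals. Without animal 69, Esrra was associated with 116 genes and Esrrg with 509, and without animal 1 Esrrg was associated with 546. Without animal 84, Ppard was associated with 313 genes, and without both animals 69 and 84 with 134. Without the 2 animals farthest from each median, the number was 374 for Ppargc1b, 236 for Esrrg and 1380 for Ppara. Leaving out animal 31 gave 1 gene for Tfam, and leaving out animal 70 gave 4 for Nrf1.

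**Figure D3:**
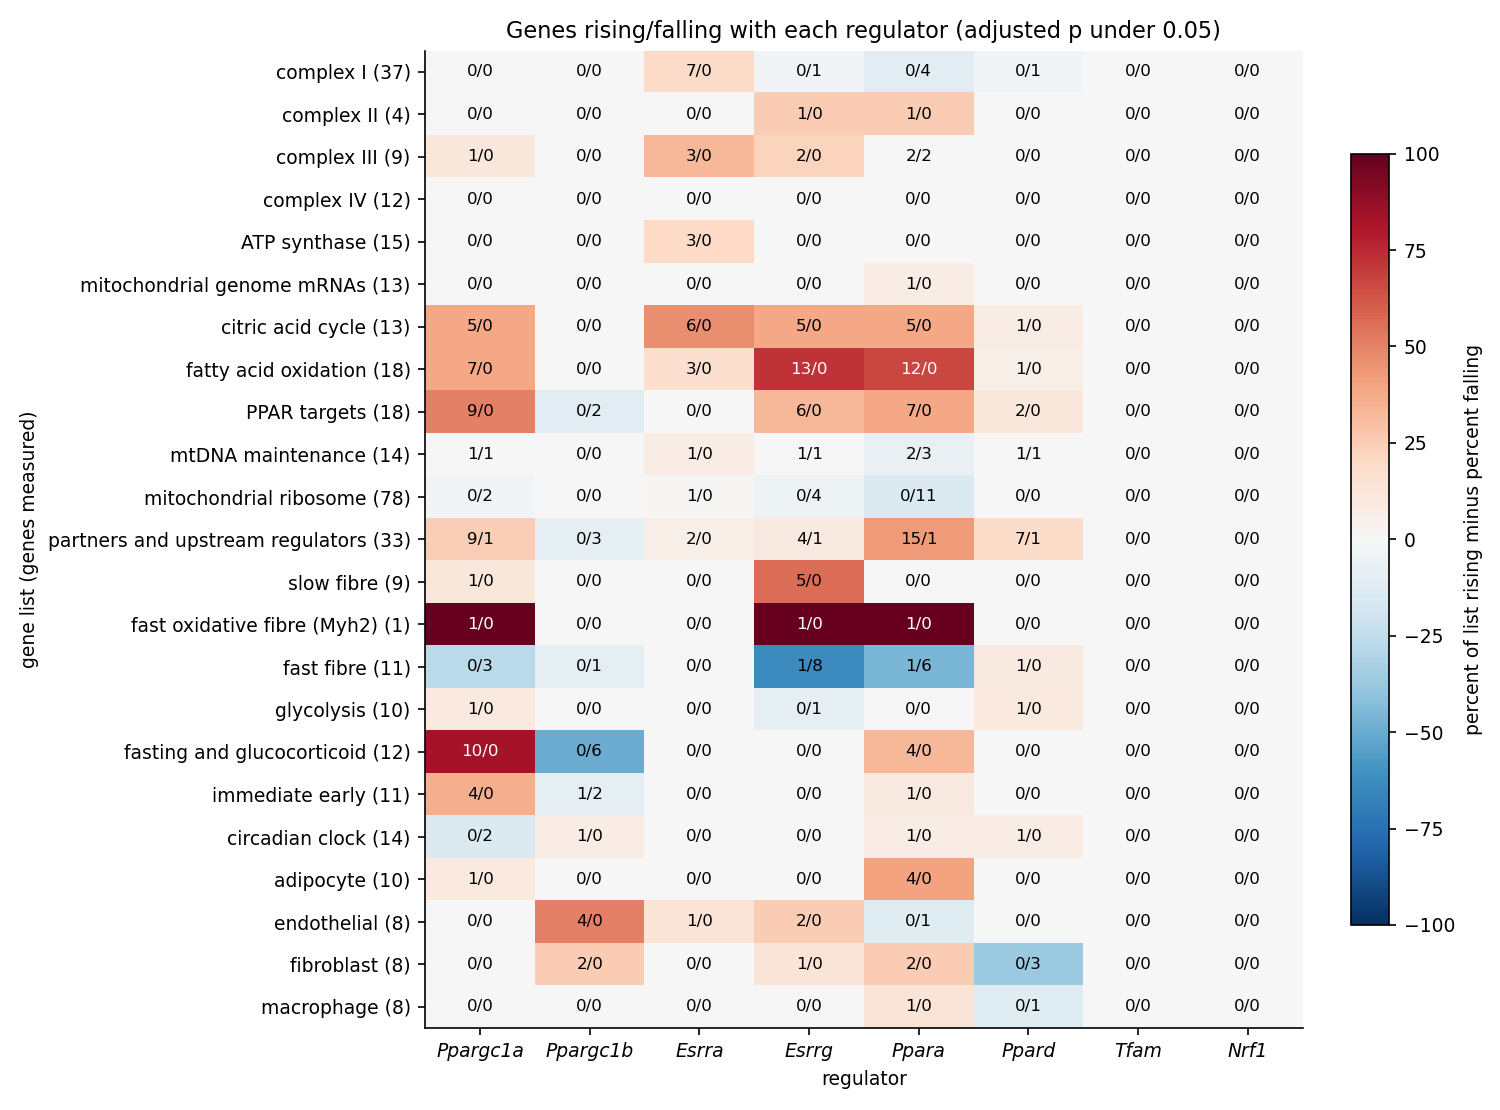
Rows are gene lists with the number of measured genes, columns are the 8 regulators, and each cell gives how many genes rose and fell with that regulator at an adjusted p under 0.05, coloured by the percent of the list that rose minus the percent that fell. Fat oxidation genes fill the Esrrg and Ppara columns with 13 and 12 of 18 rising, fasting and glucocorticoid genes rise with Ppargc1a and fall with Ppargc1b, 7 complex I genes, 3 complex III genes and 3 ATP synthase genes rise with Esrra, and the Tfam and Nrf1 columns are at 0.

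Of 12 genes whose transcripts muscle makes in fasting and under glucocorticoids, 10 rose with Ppargc1a and none fell, where 4.29% of all genes rose and 3.14% fell, and the median slope of the 12 was 0.20. Trim63, the ubiquitin ligase MuRF1 of muscle protein breakdown, rose by 0.29 ± 0.05 per SD (adjusted p = 2.21e-05), and the other atrophy ligase Fbxo32 by 0.16 ± 0.04 (adjusted p = 0.018), with the same sign in 3 of the 5 title runs. Foxo1, the transcription factor upstream of both, rose by 0.23 ± 0.04 (adjusted p = 0.000282), and Zbtb16, a glucocorticoid-induced repressor, by 0.27 ± 0.04 (adjusted p = 2.29e-05). With the title run as a covariate 6 of the 12 rose, and with the first 3 principal components of all genes none did. Ppargc1a itself correlated with the third component at r = 0.60.

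Of 18 PPAR targets 9 rose with Ppargc1a and none fell, where 4.29% of all genes rose and 3.14% fell, with a median slope of 0.12. Pdk4, the kinase that shuts pyruvate out of the citric acid cycle, ran from 7.05 over 9.86 to 11.76 on the log2 scale and rose by 0.50 ± 0.09 per SD of Ppargc1a (adjusted p = 4.66e-05). Ucp3, a mitochondrial carrier raised in fasting, rose by 0.31 ± 0.05 (adjusted p = 4.04e-05). Slc25a34, another mitochondrial carrier, rose by 0.28 ± 0.06 (adjusted p = 0.000635). Of 18 fat oxidation genes 7 rose, led by Etfdh (0.09 ± 0.02, adjusted p = 0.00171), Acadl (0.14 ± 0.03, adjusted p = 0.00187) and Cpt2 (0.11 ± 0.03, adjusted p = 0.00433), which pass electrons from acyl-CoA to the respiratory chain, dehydrogenate long-chain acyl-CoA and import it into mitochondria. Without the 2 farthest animals, 19 and 62, the counts were 5 targets and 4 fat oxidation genes, and without animal 62 alone they were 6 and 4.

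Of 77 nuclear genes for subunits of respiratory complexes I to V, 1 rose with Ppargc1a and none fell, where 4.29% of all genes rose and 3.14% fell. The 1 was Uqcrc2 of complex III, by 0.08 ± 0.02 (adjusted p = 0.00275). Citrate synthase Cs had a slope of 0.02 ± 0.01 that did not pass (adjusted p = 0.322). None of the 13 mRNAs of the mitochondrial genome passed, and their median slope was -0.019. In the citric acid cycle 5 of 13 genes rose, beside the same 4.29% of all genes, Dld, the shared dehydrogenase subunit E3, by 0.07 ± 0.02 (adjusted p = 0.0119).

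Known partners and upstream regulators of PGC-1 gave 9 genes that rose with Ppargc1a and 1 that fell of 33, beside 4.29% and 3.14% of all genes. Flcn, folliculin, a partner of FNIP1 in AMPK and mTORC1 control, rose by 0.23 ± 0.03 (adjusted p = 2.37e-08). Prkag3, the gamma subunit of AMPK found in fast muscle, fell by 0.23 per SD (slope -0.23 ± 0.04, adjusted p = 5.25e-05). Nrip1, a corepressor of ERR and PPAR, rose by 0.24 ± 0.05 (adjusted p = 0.000399). Perm1, a muscle protein induced by PGC-1 and ERR, rose by 0.17 ± 0.03 (adjusted p = 0.00024), and the angiogenic factor Vegfa by 0.10 ± 0.02 (adjusted p = 0.00247).

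Of 11 early-response genes 4 rose with Ppargc1a and none fell, and of 14 clock genes 2 fell, where 4.29% of all genes rose and 3.14% fell. Nr4a3, an orphan nuclear receptor of the immediate early class, ranged from -0.12 over 3.79 to 7.34 and rose by 1.05 ± 0.13 per SD of Ppargc1a (adjusted p = 2.37e-08), with r = 0.626 (p = 1e-05) overall and 0.514 to 0.787 in the 5 title runs. Atf3, Jun and Junb rose too. Of the clock genes Dbp, a clock output factor, had a slope of -0.39 ± 0.09 (adjusted p = 0.00168) and Per3 of -0.16 ± 0.05 (adjusted p = 0.0441). The labels used here give neither the time of day nor the feeding state at collection, and the part of either in these slopes was not tested.

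Where 4.29% of all genes rose and 3.14% fell, 1 of 9 slow-fibre genes rose with Ppargc1a, Myl3 by 0.50 ± 0.15 (adjusted p = 0.0213), and all 9 slopes were positive with a median of 0.207. Of 11 fast-fibre genes 3 fell, or 27.3%, with Casq1, the fast calsequestrin, at -0.12 ± 0.02 (adjusted p = 0.000349). Myh2, the myosin of fast oxidative fibres, rose by 0.15 ± 0.05 (adjusted p = 0.0362), while Myh7 at 0.27 ± 0.19 (adjusted p = 0.418), Myh1 at 0.09 ± 0.04 (adjusted p = 0.153) and Myh4 at 0.01 ± 0.03 (adjusted p = 0.872) did not pass. Of the markers of other cell types 1 of 10 adipocyte genes rose, and the Schwann cell sum had r = -0.26 with Ppargc1a, with none of its 8 genes past the threshold.

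The gene most like Ppargc1a was Retreg1 (chr15:25843180-25973687), a receptor for autophagy of the endoplasmic reticulum. It ran from 6.39 over 7.36 to 9.01, with r = 0.738 and rho = 0.659 over the 92 animals and 0.552 to 0.886 in the title runs. Ern1, the stress sensor IRE1 of the same organelle, followed with r = 0.64 and rho = 0.599.

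The promoter of Ppargc1a is known to be driven by CREB at cyclic AMP response elements. The palindrome TGACGTCA of that element was searched on both strands of RefSeq promoters (GRCm38.p6, windows of equal length around a gene's start), and it stood in 3.5% of the 10115 genes with a promoter in the table. It was not among the letters of the 1 Ppargc1a promoter window, and no window for Ppargc1b was used. The palindrome stood in none of the 10 fasting and glucocorticoid genes, 14 PPAR targets and 15 fat oxidation genes with a promoter. Of 9 early-response genes with one it stood in none, of 11 citric acid cycle genes in 2 and of 31 partners in 1, Flcn. Retreg1 and Flcn, picked after their values were seen from genes that rank high among those that rose with Ppargc1a, each hold 1 match, 148 and 49 bases before the start. They are shown 5′ to 3′ on the strand of the gene, at chr15:25843048-25843347 (plus) and chr11:59809990-59810289 (minus), with the palindrome in capitals. A match describes the letters and is no evidence of binding.
Retreg1: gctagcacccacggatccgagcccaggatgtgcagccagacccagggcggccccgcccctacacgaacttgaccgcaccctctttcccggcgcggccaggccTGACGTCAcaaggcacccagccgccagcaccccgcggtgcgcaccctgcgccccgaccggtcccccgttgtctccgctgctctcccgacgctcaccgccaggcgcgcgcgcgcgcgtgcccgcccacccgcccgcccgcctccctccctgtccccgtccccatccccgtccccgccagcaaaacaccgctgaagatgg
Flcn: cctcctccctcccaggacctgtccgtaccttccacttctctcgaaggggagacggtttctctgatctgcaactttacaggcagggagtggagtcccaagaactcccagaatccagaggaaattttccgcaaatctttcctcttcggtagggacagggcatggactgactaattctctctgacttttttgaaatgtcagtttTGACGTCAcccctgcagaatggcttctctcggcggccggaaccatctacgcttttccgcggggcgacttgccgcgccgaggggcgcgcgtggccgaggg

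Of the same 12 fasting and glucocorticoid genes 6 fell with Ppargc1b and none rose, where 2.57% of all genes fell and 3.14% rose, and the median slope was -0.21. Tsc22d3, the glucocorticoid-induced protein GILZ, had a slope of -0.25 ± 0.04 (adjusted p = 9.64e-05), Foxo1 of -0.23 ± 0.04 (adjusted p = 0.000403) and Fbxo32 of -0.22 ± 0.04 (adjusted p = 0.00041). Fbxo32, which ran from 8.38 over 9.68 to 10.8, had r = -0.47 with Ppargc1b and was negative in all 5 title runs, from -0.607 to -0.00447. With marker scores of other cell types and fibres as covariates 2 of the 12 fell, and with the first 3 principal components none.

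None of 77 respiratory chain genes, 13 citric acid cycle genes or 18 fat oxidation genes passed in either direction. Of 18 PPAR targets 2 fell, where 2.57% of all genes fell, Pdk4 at -0.32 ± 0.09 (adjusted p = 0.0282) and Ucp3 at -0.18 ± 0.06 (adjusted p = 0.0461). Of the 33 partners 3 fell, Nfe2l2 (-0.11 ± 0.03), Flcn (-0.15 ± 0.03) and Nrip1 (-0.18 ± 0.05). Perm1 had 0.10 ± 0.04 and did not pass (adjusted p = 0.106), and neither did Vegfa, at 0.03 ± 0.02 (adjusted p = 0.508).

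Of 8 endothelial markers 4 rose with Ppargc1b, where 3.14% of all genes rose, with Kdr, the VEGF receptor, at 0.19 ± 0.04 (adjusted p = 0.000579) and Emcn at 0.13 ± 0.03 (adjusted p = 0.0158), and the summed endothelial level had r = 0.39 with Ppargc1b. With the title run as a covariate, or without the 2 farthest animals 83 and 1, 1 of the 8 rose, and without animal 1 alone 2 rose. With marker scores as covariates, which hold the same markers, none of the 8 passed. Of 8 fibroblast markers 2 rose, beside the same 3.14%, and the fibroblast sum had r = 0.24 with Ppargc1b. The clock output Dbp rose by 0.36 ± 0.09 (adjusted p = 0.00624) and the early gene Egr1 by 0.44 ± 0.11 (adjusted p = 0.00747), while Nr4a3 fell, with a slope of -0.58 ± 0.16 (adjusted p = 0.0204). Most like Ppargc1b were Tnfaip3, an inhibitor of NF-kappa B (r = 0.611, rho = 0.549, and -0.158 to 0.705 in the title runs), Nrp1, a coreceptor of VEGF and semaphorins (r = 0.596, rho = 0.528), and the ubiquitin ligase Siah1a (r = -0.587, rho = -0.581).

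Whether the 2 coactivators differed was tested with both in 1 model. The slopes differed for 1300 of 13439 genes, or 9.67%, with 623 (4.64%) higher on Ppargc1a and 677 (5.04%) higher on Ppargc1b. Of the 12 fasting and glucocorticoid genes 11 had the higher slope on Ppargc1a and none on Ppargc1b, with a median difference of 0.35. Cdkn1a, the remaining one, had a difference of 0.19 ± 0.10 (adjusted p = 0.221). Trim63 differed by 0.45 ± 0.06 (adjusted p = 4.06e-08), with slopes of 0.27 on Ppargc1a and -0.18 on Ppargc1b in that model. The count was 11 with the title run or the marker scores as covariates and without the 2 farthest animals, and 0 with the first 3 principal components.

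Other lists differed in smaller numbers. Of 18 PPAR targets 4 had the higher slope on Ppargc1a, Pdk4 by 0.72 ± 0.11 (adjusted p = 1.05e-06), and no fat oxidation gene differed. Of 8 endothelial markers 4 had the higher slope on Ppargc1b. Nr4a3 had a difference of 1.43 ± 0.17 (adjusted p = 5.71e-10), and the heat shock genes Hspa1a (1.25 ± 0.25) and Hspa1b (1.23 ± 0.24) came next. These 2 are near-identical copies, so reads may be split between them. In the other direction stood Gm11266 (-0.70 ± 0.08), Dbp (-0.66 ± 0.11, adjusted p = 4.26e-06) and Gm37759 (-0.58 ± 0.08).

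**Figure D4:**
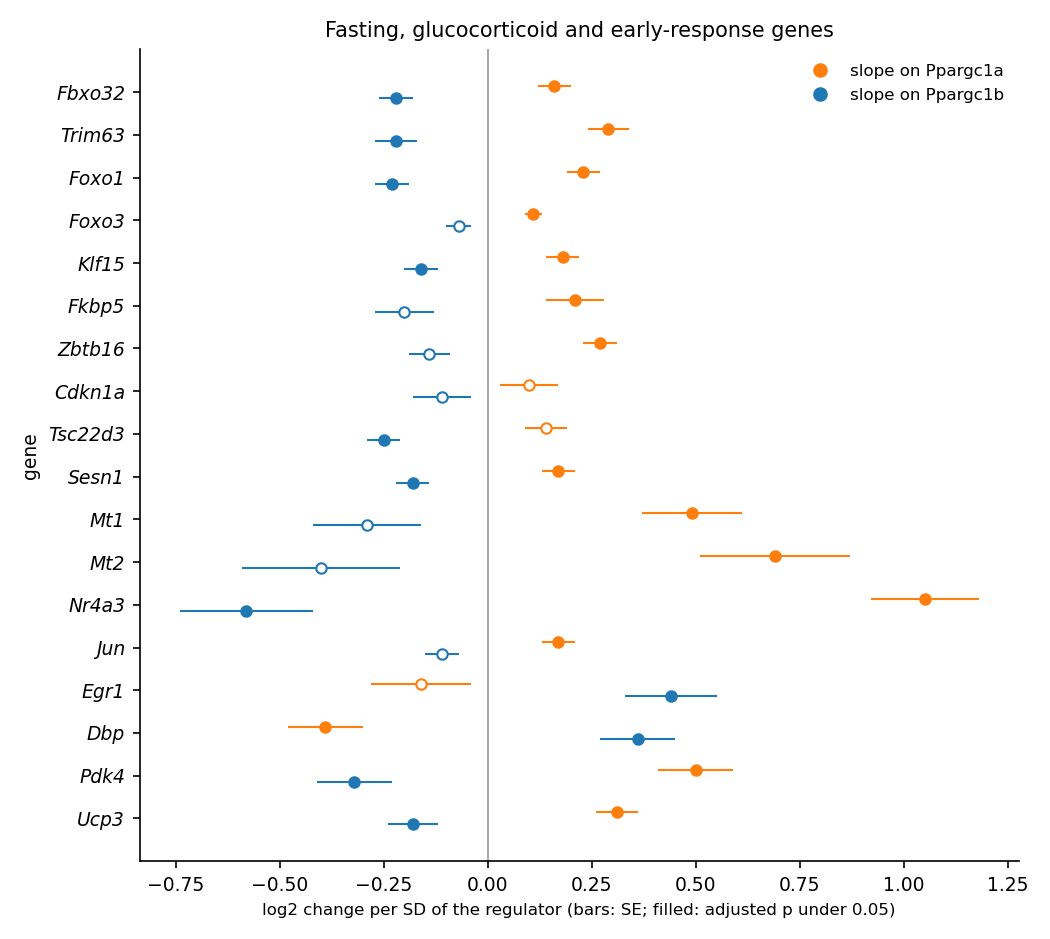
Points are slopes (log2 change per SD of the regulator) and bars are SE, for 12 fasting and glucocorticoid genes and 6 early, clock and PPAR target genes, each fitted on Ppargc1a and on Ppargc1b alone over 92 animals; filled points passed an adjusted p of 0.05. All 12 fasting and glucocorticoid genes have positive slopes on Ppargc1a and negative ones on Ppargc1b, and Dbp and Egr1 lie the other way round.

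Some respiratory chain transcripts rose with Esrra. Of the 77 nuclear subunit genes 13 rose and none fell, where 1.17% of all genes rose and 0.432% fell, and 62 of the 77 slopes were positive with a median of 0.025. The 13 were 7 of 37 genes of complex I, 3 of 9 of complex III and 3 of 15 of the ATP synthase, and none of 4 of complex II or 12 of complex IV. Cyc1, cytochrome c1 of complex III, rose by 0.09 ± 0.02 per SD of Esrra (adjusted p = 0.000225), and Atp5f1a, the alpha subunit of the ATP synthase, by 0.08 ± 0.02 (adjusted p = 0.00145). Without animal 69 the count was 8, without the 2 farthest animals 7, with marker scores as covariates 3 and with the first 3 principal components 19.

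The citric acid cycle gave 6 of 13 rising genes with Esrra, where 1.17% of all genes rose and 0.432% fell, among them Mdh2 (0.07 ± 0.02, adjusted p = 0.00165), Ogdh (0.06 ± 0.01, adjusted p = 0.00757) and Cs (0.05 ± 0.01, adjusted p = 0.00963). Without animal 69 that count was 3 and Cs did not pass (0.04, adjusted p = 0.0682), and without the 2 farthest animals the count was 1. Of 18 fat oxidation genes 3 rose, led by Cpt1b, the muscle carnitine palmitoyltransferase (0.09 ± 0.02, adjusted p = 0.00101), and 1 did so without animal 69. The superoxide dismutase of mitochondria, Sod2, rose by 0.08 ± 0.02 (adjusted p = 0.00136). None of 18 PPAR targets, 9 slow-fibre genes or 11 fast-fibre genes passed on Esrra, and Myh7 had 0.18 ± 0.19 (adjusted p = 0.762). The 13 mitochondrial genome mRNAs had a median slope of 0.05 with 12 of 13 positive and none past the threshold.

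Of 7 genes for secreted factors and kynurenine metabolism 4 rose with Esrra, where 1.17% of all genes rose: Vegfb, Vegfa, Fndc5 and Got2. Without animal 69 Vegfa did not pass (0.08, adjusted p = 0.103). Vegfb, a vascular factor whose gene lies 61 kb from Esrra, rose by 0.12 ± 0.02 (adjusted p = 4.14e-05), and within 2 Mb of Esrra 3 genes passed, 2.46% of those measured there against 1.6% of all genes. Esrrb, the remaining ERR gene, rose by 0.29 ± 0.05 (adjusted p = 6.28e-05). The most similar gene was Perm1 (chr4:156215868-156221307), which ran from 6.08 over 7.81 to 8.49, with r = 0.579 and rho = 0.574, and 0.485 to 0.679 in the title runs. Crat, the carnitine acetyltransferase (r = 0.561, rho = 0.535), and Ckmt2, the mitochondrial creatine kinase (r = 0.554, rho = 0.536), followed. The summed endothelial level had r = 0.39 with Esrra, and 1 of its 8 genes rose, Kdr, which did not pass without animal 69 (0.12, adjusted p = 0.121).

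Of 18 fat oxidation genes 13 rose with Esrrg and none fell, where 4.43% of all genes rose and 3.03% fell, and all 18 slopes were positive with a median of 0.09. Acadl rose by 0.17 ± 0.03 (adjusted p = 2.4e-05), Cpt1b by 0.09 ± 0.02 (adjusted p = 4.59e-05) and Etfdh by 0.11 ± 0.02 (adjusted p = 4.61e-05). Without the 2 farthest animals, 1 and 69, 7 of the 18 rose. Of 18 PPAR targets 6 rose, led by Lpl, the lipase that frees fatty acids from lipoproteins (0.21 ± 0.03, adjusted p = 1.1e-08), Cd36, the fatty acid transporter (0.20 ± 0.03, adjusted p = 5.55e-07), and Fabp3, the fatty acid binding protein of muscle (0.20 ± 0.04, adjusted p = 0.000363). Pdk4 and Ucp3 did not pass, at 0.05 ± 0.10 and -0.03 ± 0.06.

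Of 9 slow-fibre genes 5 rose with Esrrg and of 11 fast-fibre genes 8 fell and 1 rose, where 4.43% of all genes rose and 3.03% fell. The 9 slow-fibre genes had a median slope of 0.42. Myl2 rose by 0.61 ± 0.14 (adjusted p = 0.00168), Myl3 by 0.63 ± 0.14 (adjusted p = 0.00174), Atp2a2 by 0.25 ± 0.07 (adjusted p = 0.013), and Tnnt1 and Tpm3 rose too. Myh7, the slow myosin, had a slope of 0.47 ± 0.19 that did not pass (adjusted p = 0.102). It spanned 0.51 over 4.65 to 8.40, and with Esrrg it had r = 0.252 (p = 0.0153) and rho = 0.281 (p = 0.0065), with -0.028 to 0.409 in the title runs. Among the fast-fibre genes that fell were Pvalb, the calcium buffer parvalbumin, at -0.13 ± 0.02 (adjusted p = 3.26e-05), Casq1 at -0.12 ± 0.02 (adjusted p = 0.000431) and Actn3 at -0.11 ± 0.02 (adjusted p = 0.000964). Myh1, the myosin of type 2X fibres, was the exception among the 11 and rose by 0.20 ± 0.04 (adjusted p = 0.000111), and Myh2 rose by 0.23 ± 0.05 (adjusted p = 0.00024).

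These fibre counts rested in part on animal 1. Without it 2 slow-fibre genes rose and 6 fast-fibre genes fell, and without animals 1 and 69 the counts were 1 and 3. Without animals 69 and 84 they were 7 and 9. The summed slow-fibre level had r = 0.35 with Esrrg and the fast-fibre sum r = -0.43, and whether the piece of muscle taken differed between animals was not tested. Of the markers of other cell types, the endothelial sum had r = 0.34 with Esrrg and the fibroblast sum r = 0.18. Of 8 endothelial genes 2 rose, Tek (0.13 ± 0.03, adjusted p = 0.000495) and Cdh5 (0.11 ± 0.03, adjusted p = 0.00422), and of 8 fibroblast genes 1, Fbn1 (0.21 ± 0.05, adjusted p = 0.00413). Without animals 1 and 69 none of these 3 passed (adjusted p = 0.102, 0.263 and 0.24). With the marker scores of other cell types and fibres as covariates 9 of the 18 fat oxidation genes rose with Esrrg. With the slow-fibre score as a covariate, which holds the slow-fibre genes, none of the 9 slow-fibre genes rose and 11 of the 18 fat oxidation genes did.

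The respiratory chain gave 3 rising genes and 1 falling gene of 77 on Esrrg, where 4.43% of all genes rose and 3.03% fell: Uqcrc2 (0.09 ± 0.02, adjusted p = 0.000246), Sdhb (0.07 ± 0.02, adjusted p = 0.00677) and Uqcrc1 (0.07 ± 0.02, adjusted p = 0.00751) rose and Ndufa13 fell (-0.05 ± 0.02, adjusted p = 0.0342). Without animal 69 Ndufa13 did not pass on Esrrg (-0.04, adjusted p = 0.128). Of 78 mitochondrial ribosome genes 4 fell, with Mrpl57 at -0.08 ± 0.02 (adjusted p = 0.00151). The genes most like Esrrg were Atp1b1, a subunit of the sodium pump (r = 0.67, rho = 0.578), Esrrb (r = 0.664, rho = 0.554) and Akap1, which anchors protein kinase A to mitochondria (r = 0.662, rho = 0.528). Perm1 rose by 0.24 ± 0.03 per SD of Esrrg (adjusted p = 1.78e-09), with r = 0.659 (p = 1e-05) overall and 0.524 without animals 1 and 69.

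Esrra and Esrrg were compared in 1 model. Their slopes differed for 144 of 13439 genes, 1.07%, with 82 (0.61%) higher on Esrra and 62 (0.461%) higher on Esrrg. Of the 77 respiratory chain genes 2 had the higher slope on Esrra, among them Atp5f1d of the ATP synthase by 0.11 ± 0.03 (adjusted p = 0.0447). Lpl (difference -0.22 ± 0.04, adjusted p = 0.0148), Cd36 (-0.18 ± 0.05, adjusted p = 0.0384) and Decr1 (-0.14 ± 0.04, adjusted p = 0.0424) had the higher slope on Esrrg. No slow-fibre or fast-fibre gene differed, so the fibre genes that passed on Esrrg alone are not shown to separate the receptors. The largest differences by size among genes past the threshold with a mean of at least 1 were Otog, Cacna2d4 and Ddah1 on the Esrra side (0.52 ± 0.14, 0.49 ± 0.13 and 0.39 ± 0.09). On the Esrrg side they were Adamtsl3 and Rrm2b (-0.49 ± 0.12 and -0.32 ± 0.08), besides 1 of 2 identifiers of Septin2.

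ERRs bind an extended core that holds AAGGTCA. Those letters stood on either strand in 3.94% of the 10115 genes with a promoter, in 4 of 51 respiratory chain genes (7.84%), in 1 of 15 fat oxidation genes (6.67%) and in 4 of 31 partners (12.9%). The longer TCAAGGTCA, which contains the shorter motif, stood in 33 genes, or 0.326%. Promoters of 2 genes that rose with Esrrg are shown with the match in capitals. Perm1, which also led the Esrra list, holds AAGGTCA on the reverse strand 202 bases before its start, at chr4:156215677-156215976 (plus), and the slow-fibre tropomyosin Tpm3 holds the longer motif 230 bases before its start, at chr3:90072401-90072700 (plus).
Perm1: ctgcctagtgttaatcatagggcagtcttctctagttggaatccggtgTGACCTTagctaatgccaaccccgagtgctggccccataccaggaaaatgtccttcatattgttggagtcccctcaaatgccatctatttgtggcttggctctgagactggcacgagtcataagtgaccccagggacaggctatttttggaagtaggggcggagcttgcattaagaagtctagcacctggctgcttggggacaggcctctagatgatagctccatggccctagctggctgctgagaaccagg
Tpm3: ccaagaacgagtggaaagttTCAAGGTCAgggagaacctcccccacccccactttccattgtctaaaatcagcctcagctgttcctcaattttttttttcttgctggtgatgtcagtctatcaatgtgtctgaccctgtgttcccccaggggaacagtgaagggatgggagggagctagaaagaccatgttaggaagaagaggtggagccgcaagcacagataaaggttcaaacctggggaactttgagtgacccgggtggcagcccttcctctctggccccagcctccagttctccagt

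Of 18 fat oxidation genes 12 rose with Ppara and none fell, where 9.54% of all genes rose and 7.88% fell, with a median slope of 0.08. Cpt2 rose by 0.16 ± 0.02 (adjusted p = 3.05e-07), Acadm, the medium-chain acyl-CoA dehydrogenase, by 0.15 ± 0.02 (adjusted p = 9.92e-06) and Etfdh by 0.12 ± 0.02 (adjusted p = 1.36e-05). The count was 9 without the 2 farthest animals, 69 and 1, and 15 with the first 3 principal components as covariates.

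Among its classical targets 7 of 18 rose and none fell, beside the same shares of all genes. Cd36 ran from 6.65 over 8.16 to 9.0 and rose by 0.21 ± 0.03 (adjusted p = 1.36e-07), with r = 0.618 (p = 1e-05) and 0.175 to 0.853 in the title runs, and Lpl rose by 0.19 ± 0.03 (adjusted p = 3.05e-07). Pdk4 and Ucp3, textbook PPAR targets that rose with Ppargc1a, did not pass on Ppara, at 0.16 ± 0.10 (adjusted p = 0.265) and 0.08 ± 0.06 (adjusted p = 0.365). For Pdk4, r with Ppara was 0.167 (p = 0.112).

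Without covariates and with all 92 animals, respiratory chain genes passed on Ppara no more often than genes at large. The shares were 11.7% of the list against 17.4% of all genes in either direction. Of the 77 genes 3 rose, Uqcrc2 by 0.10 ± 0.02 (adjusted p = 1.19e-05), Sdha and Uqcrc1, and 6 fell, among them Ndufa13 at -0.07 ± 0.02 (adjusted p = 0.00159), Uqcrh at -0.05 ± 0.02 (adjusted p = 0.0172) and Uqcrq at -0.06 ± 0.02 (adjusted p = 0.0242). Of 78 mitochondrial ribosome genes 11 fell and none rose, or 14.1% of the list where 7.88% of all genes fell, with Mrpl57 at -0.08 ± 0.02 (adjusted p = 0.00133). Without animal 69 the falls numbered 3 and 6, and Sdha, Uqcrh and Uqcrq did not pass (adjusted p = 0.126, 0.0937 and 0.0557), and without animal 1 they were 5 and 7. With the first 3 principal components as covariates, 1.49% of all genes passed on Ppara in either direction. Under that setting 14 of the 77 respiratory chain genes rose and none fell, a larger share than that of all genes. Of the 78 ribosome genes 4 rose and none fell under it. Ppara had r = -0.48 with the second component. In the citric acid cycle 5 of 13 genes rose, Dld by 0.11 ± 0.02 (adjusted p = 2.42e-06). Of the mitochondrial genome mRNAs mt-Nd4l, 1 of 13, rose by 0.09 ± 0.03 (adjusted p = 0.0173), beside a median slope of -0.023.

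Of 11 fast-fibre genes 6 fell with Ppara and 1 rose, where 7.88% of all genes fell and 9.54% rose, and none of 9 slow-fibre genes passed. Atp2a1, the calcium pump of fast fibres, had a slope of -0.10 ± 0.02 (adjusted p = 9.47e-05), Pvalb of -0.12 ± 0.02 (adjusted p = 9.78e-05) and Casq1 of -0.12 ± 0.02 (adjusted p = 0.00019). Myh1 rose by 0.13 ± 0.04 (adjusted p = 0.0131) and Myh2 by 0.27 ± 0.04 (adjusted p = 6.33e-06). Without animal 1, 4 fast-fibre genes fell, and without animals 1 and 69, 3 fell.

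**Figure D5:**
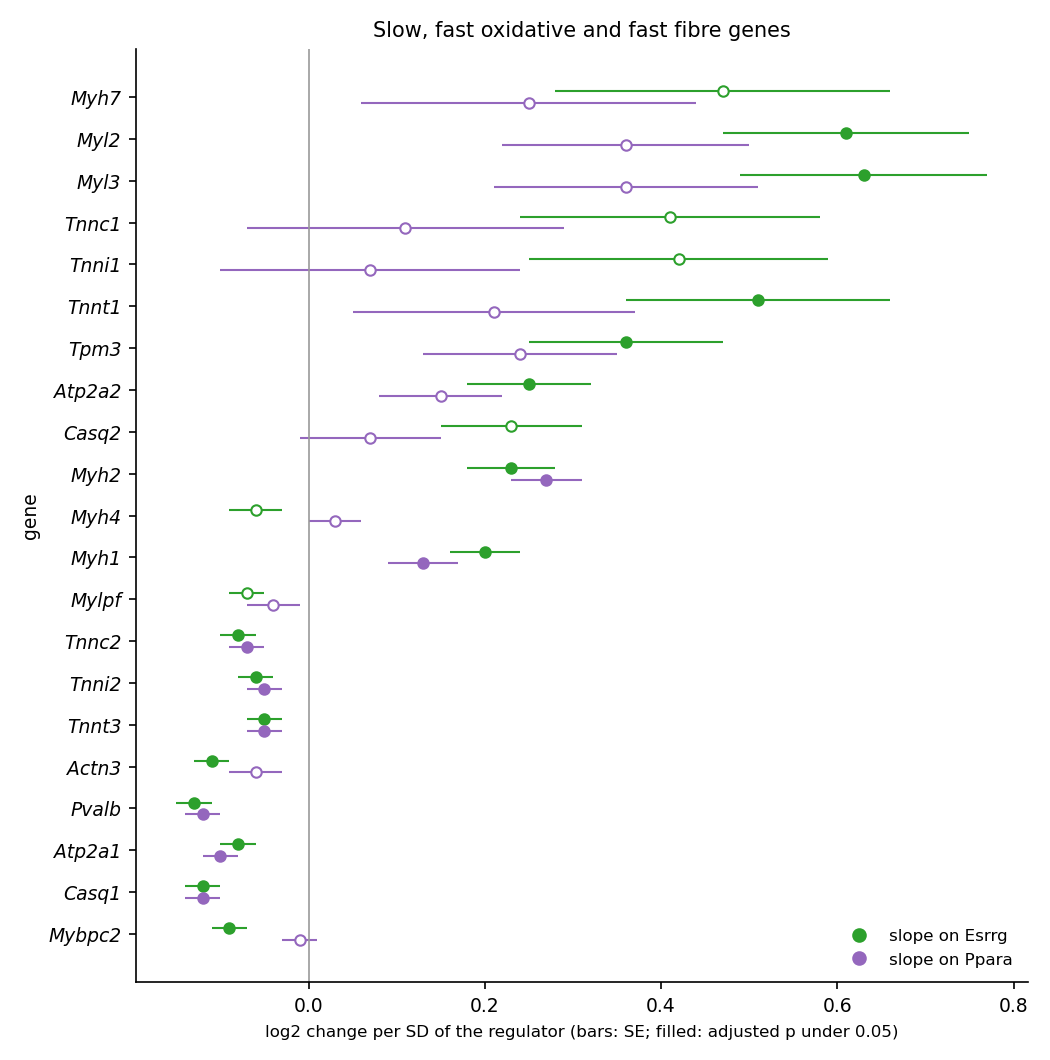
Points are slopes (log2 change per SD of the regulator) and bars are SE for 9 slow-fibre genes, Myh2 and 11 fast-fibre genes on Esrrg and on Ppara over 92 animals; filled points passed an adjusted p of 0.05. Myh2 and Myh1 rise with both, most other fast-fibre genes have negative slopes on both, and the slow-fibre slopes have wide errors.

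Of 33 partners of the pathway 15 rose with Ppara, where 9.54% of all genes rose, and 1 fell, Kat2a. Creb1, the cyclic AMP response factor, rose by 0.14 ± 0.03 (adjusted p = 0.000109), Perm1 by 0.18 ± 0.03 (adjusted p = 4.93e-05) and the coactivator Ncoa2 by 0.12 ± 0.03 (adjusted p = 0.000458). With the first 3 principal components 3 of the 33 rose. Of 10 fat cell markers 4 rose, with Plin4 at 0.21 ± 0.04 (adjusted p = 0.000128) and Cidec at 0.43 ± 0.11 (adjusted p = 0.00352). The summed level of the 10, most of it from Car3, Plin4 and Fabp4, had r = 0.28 with Ppara. Without animal 69, which had the lowest adipocyte sum, 2 of the 10 rose. Of 8 fibroblast markers 2 rose, of 8 macrophage markers 1 rose and of 8 endothelial markers 1 fell. Without animal 69 the fibroblast genes Fbn1 (0.14, adjusted p = 0.054) and Pdgfra (0.09, adjusted p = 0.0646) did not pass. The macrophage gene Cd163 and the endothelial gene Cldn5 did (adjusted p = 0.00196 and 0.00323). Among the genes most like Ppara were Cd36 and the dehydrogenase Hsdl2 (r = 0.617, rho = 0.582).

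The PPAR element, AGGTCA and a second AGGTCA with 1 free base between them, which PPAR and RXR bind as a pair, was searched on both strands and stood in 4 of the 10115 genes with a promoter (0.0395%) and in none of the 14 PPAR targets or 15 fat oxidation genes with one. The Ppara promoter itself holds the NRF1 palindrome, GCGCA followed by its reverse complement, which stood in 2.25% of genes and in 1 of the 7 regulators with a promoter in the table. Ppara and Nrf1 levels had r = 0.138 (p = 0.191). The window is chr15:85735526-85735825 (plus), with the palindrome in capitals 31 bases before the start.
Ppara: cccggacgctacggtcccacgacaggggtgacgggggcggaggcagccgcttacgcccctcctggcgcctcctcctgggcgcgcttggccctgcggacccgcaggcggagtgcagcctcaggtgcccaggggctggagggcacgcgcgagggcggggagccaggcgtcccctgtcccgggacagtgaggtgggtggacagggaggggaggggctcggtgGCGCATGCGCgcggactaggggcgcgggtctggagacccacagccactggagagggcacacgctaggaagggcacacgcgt

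Of 18 fat oxidation genes 1 rose with Ppard, Cpt1b by 0.06 ± 0.02 (adjusted p = 0.0377), where 4.78% of all genes rose and 3.47% fell. Of 18 PPAR targets 2 rose, Mlycd, which removes malonyl-CoA (0.09 ± 0.03, adjusted p = 0.023), and Vldlr (0.13 ± 0.04, adjusted p = 0.0355). Its partners gave 7 rising and 1 falling of 33, 24.2% of the list against 8.26% of all genes, with Mef2d, a myogenic factor (0.09 ± 0.02, adjusted p = 0.000118), and Rxra, the PPAR dimer partner (0.09 ± 0.02, adjusted p = 0.000809). Without animal 84 Cpt1b (0.05, adjusted p = 0.102), Mlycd (0.08, adjusted p = 0.0917) and Vldlr (0.12, adjusted p = 0.118) did not pass, while Mef2d and Rxra did (adjusted p = 0.00126 and 0.0207). Without animal 84 the partners that rose numbered 3, and without animals 69 and 84 the number was 1.

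Some markers of other cell types fell with Ppard, where 3.47% of all genes fell: 3 of 8 fibroblast genes, with Lum at -0.18 ± 0.04 (adjusted p = 0.00198), and 1 of 8 macrophage genes, Lyz2 at -0.27 ± 0.07 (adjusted p = 0.00655). Animal 84, with the lowest Ppard, had the highest macrophage sum, and without it Lyz2 did not pass (-0.16, adjusted p = 0.139) and Lum did (-0.14, adjusted p = 0.0482). Without animals 69 and 84 none of the 8 fibroblast genes fell. The summed macrophage level had r = -0.32 with Ppard and the fibroblast sum r = -0.30. Myh4, the myosin of the fastest fibres, rose by 0.08 ± 0.03 (adjusted p = 0.0359) and did not pass without animal 84 (0.05, adjusted p = 0.291). Smad3, a mediator of TGF-beta, was most like Ppard, with r = 0.699 and rho = 0.647, 0.459 to 0.825 in the title runs and 0.647 without animals 69 and 84. The histone demethylase Phf2 (r = 0.659, rho = 0.533) and Acacb, whose product restrains Cpt1 (r = 0.6, rho = 0.529), came next.

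Within 2 Mb of Ppard 9 of 60 genes passed, 15% against 8.26% of all genes, and without animal 84 5 of 60 passed, 8.33% against 2.33%. Mapk14, the p38 kinase 390 kb away, rose by 0.11 ± 0.02 (adjusted p = 4.98e-05). Linked inherited variants were not analysed here. Near the other regulators the shares were 6.67% of 15 genes for Ppargc1a, 5.71% of 35 for Ppargc1b, 9.09% of 11 for Esrrg and 16.7% of 24 for Ppara, each within 2 percentage points of the share of all genes.

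Ppara and Ppard differed in slope for 1077 of 13439 genes, 8.01%, with 551 (4.1%) higher on Ppara and 526 (3.91%) higher on Ppard. Of 18 fat oxidation genes 5 had the higher slope on Ppara, Hadh by 0.11 ± 0.03 (adjusted p = 0.00771) and Cpt2 by 0.14 ± 0.04 (adjusted p = 0.0119), and none on Ppard. Lpl differed by 0.22 ± 0.05 (adjusted p = 0.00124), Cd36 by 0.19 ± 0.05 (adjusted p = 0.00532) and Myh2 by 0.26 ± 0.07 (adjusted p = 0.017), all higher on Ppara. Of 11 fast-fibre genes 4 had the higher slope on Ppard, with Actn3 at -0.18 ± 0.04 (adjusted p = 0.00263). With marker scores as covariates no fat oxidation gene differed. Without the 2 farthest animals of each receptor 2 did. Of the macrophage and the fibroblast markers, 5 of 8 each had the higher slope on Ppara, without animals 69 and 84 the numbers were 2 and 3, and with marker scores none did. Esrrg and Ppargc1a themselves had the higher slope on Ppara, by 0.28 ± 0.06 (adjusted p = 0.00255) and 0.32 ± 0.09 (adjusted p = 0.0236).

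Among genes past the threshold with a mean of at least 1, the slopes that separated the PPARs most were on Myl2 (0.74 ± 0.24) and the lipid synthesis genes Elovl6 (0.69 ± 0.22) and Acly (0.56 ± 0.16), higher on Ppara. Higher on Ppard were 1700001O22Rik (-0.64 ± 0.15), Tmem100 (-0.47 ± 0.11) and the replication gene Gins2 (-0.38 ± 0.10).

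No gene passed on Tfam, and its mitochondrial targets had small slopes. All 13 mRNAs of the mitochondrial genome had positive slopes with a median of 0.053, where the median of all genes was 0.002, and none passed. Of 77 nuclear respiratory chain genes 64 slopes were positive with a median of 0.018, all 13 citric acid cycle genes and all 18 fat oxidation genes had positive slopes, and 11 of 14 genes of mitochondrial DNA maintenance did. Lists of other kinds leaned 1 way as well: all 10 adipocyte markers had negative slopes with a median of -0.177, and 6 of 8 Schwann cell markers did, with a median of -0.078. Genes of a list share animals and are not independent, so these counts describe the 92 animals only. The nearest in pattern were 9230114K14Rik (r = 0.453, -0.121 to 0.789 in the title runs, adjusted p = 0.0829), Pofut2 (r = -0.437, adjusted p = 0.114) and Trabd2b (r = -0.426, adjusted p = 0.114).

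No gene passed on Nrf1 either. Of the 77 respiratory chain genes 55 had positive slopes on Nrf1, with a median of 0.014, and Cs had a slope of 0.00 ± 0.01 (adjusted p = 0.993). Markers of other cell types had larger medians: all 8 macrophage markers had negative slopes (median -0.119), as had all 8 fibroblast markers (-0.087), and all 10 adipocyte markers had positive slopes (0.116). The macrophage sum had r = -0.26 with Nrf1 and the fibroblast sum r = -0.23. Vmp1, an autophagy gene (r = 0.442, adjusted p = 0.0592), the kinase Stk17b (r = -0.434, adjusted p = 0.0592) and Skp1, a subunit of ubiquitin ligases (r = 0.424, adjusted p = 0.0933), were nearest. Tfam and Nrf1 slopes differed for 0 of 13439 genes in limma, with 1126 at an unadjusted p under 0.05.

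Tfam is a known target of NRF1 and of GABP, the ETS factor also called NRF2. Its promoter, chr10:71237995-71238294 (minus), holds 1 copy of the GABP core CCGGAAGT, in capitals 47 bases before the start. That core, searched on both strands, stood in 8.83% of the 10115 genes with a promoter, in 12 of 69 mitochondrial ribosome genes (17.4%) and in 3 of 51 respiratory chain genes (5.88%).
Tfam: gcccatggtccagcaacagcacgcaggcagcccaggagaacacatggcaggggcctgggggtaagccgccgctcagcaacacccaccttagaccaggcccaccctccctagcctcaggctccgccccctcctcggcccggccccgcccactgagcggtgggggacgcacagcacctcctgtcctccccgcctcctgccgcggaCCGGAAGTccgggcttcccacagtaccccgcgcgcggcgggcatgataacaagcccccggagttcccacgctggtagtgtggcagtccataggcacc

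Read across the regulators, single genes differed in which of them they passed on. Perm1 passed on 5 of the 8, at 0.24 ± 0.03 on Esrrg, 0.21 ± 0.03 on Esrra, 0.18 ± 0.03 on Ppara, 0.17 ± 0.03 on Ppargc1a and 0.12 ± 0.04 on Ppard, the last lost without animal 84 (0.10, adjusted p = 0.123). Myh2 passed on Ppara, Esrrg and Ppargc1a, and Vegfa on Esrrg (0.11 ± 0.02), Ppargc1a and Esrra (0.08 ± 0.02), the last lost without animal 69 (0.08, adjusted p = 0.103). Cs passed on Esrra, at 0.05 ± 0.01, which was lost without animal 69 (0.04, adjusted p = 0.0682), and Cs had slopes of 0.00 to 0.04 on the other 7. Its slopes did not pass as different in any of the 4 pair models, with Esrra against Esrrg at 0.02 ± 0.02 (adjusted p = 0.603). Myh7 passed on none, with slopes from -0.21 ± 0.19 on Ppard to 0.47 ± 0.19 on Esrrg.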

How the data were processed

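Quadriceps RNA of 92 mice went into mRNA libraries (KAPA mRNA HyperPrep, per the labels' protocols). The submitters' processing notes name bcl2fastq, MultiQC, kallisto 0.50.1, edgeR and mm10, with no role or order given. The deposited log2 values add up, as 2 to the power of the value, to 898071 to 1140761 per library, so they were read as log2 per-million levels by the authors; their exact scaling and the depth are unknown. After 15 repeated lines of 13456 were dropped, 13441 genes were left.

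Here limma 3.58.1 (R 4.3.3) fitted each gene on the standardised level of a regulator, letting the prior variance follow the mean; p-values were adjusted by Benjamini-Hochberg across the whole table, at a threshold of 0.05. For pairs, both regulators entered 1 model. Correlations are Pearson's and Spearman's with permutation tests. Lists are described by counts and medians, with no test of a list. The smallest root mean square log2 difference between libraries was 0.521, so none was a duplicate. The fit on a single regulator was tested on simulated data for Ppargc1a and Esrra. Genes were drawn there independently of each other, which real genes are not, and the pair models and the F test were not simulated.

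Members and gene lists were chosen with earlier results of these data known. Named genes are the 3 most correlated with each regulator and up to 3 per direction with the largest pair difference, both among genes with a mean of at least 1. To these come up to 3 per list past the threshold with the largest moderated statistic, and 9 fixed genes. Fbxo32, Nrip1 and Junb on Ppargc1a, Tnnt1, Tpm3 and Actn3 on Esrrg, Fndc5, Got2, Kat2a, Mapk14, Cdkn1a and the genes shown for their promoters, among others, were named after their values were seen. A few genes that the rule names are not reported here. Coordinates are from GENCODE M21 (GRCm38), promoters from RefSeq GRCm38.p6. Alternatives were covariates, samples left out, scale, filter and centring.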

Additional observations from a re-analysis of the deposited data

How the results depend on the processing

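No paired analysis was possible because all 92 animals form 1 group. Depth is unknown, so precision rests on the spread between animals alone. The values here are the percent of genes tested that were associated with a regulator, or whose slopes differed within a pair, and the cause of each change was not tested, except that leaving out animals uses fewer samples. With the title run as a covariate the values were 3.71 for Ppargc1a, 3.65 for Ppargc1b and 0.00744 for Nrf1, and 6.12 for the PGC-1 pair and 0.446 for the ERR pair. With the first 3 principal components they were 0.841 for Ppargc1a, 0.216 for Ppargc1b, 3.1 for Esrrg, 1.49 for Ppara, 0.908 for Ppard, 0.0372 for Tfam and 0.00744 for Nrf1, and the pairs had 0.253 (PGC-1), 0.0893 (ERR), 0.707 (PPAR) and 0.0446 (Tfam and Nrf1). With marker scores they were 1.03 for Ppargc1b, 0.424 for Esrra and 2.78 for Ppard, and 5.72, 0.253 and 0.625 for the PGC-1, ERR and PPAR pairs. Without the 2 farthest animals they were 2.78 for Ppargc1b, 0.714 for Esrra, 1.76 for Esrrg, 10.3 for Ppara, 1.92 for Ppard, 0.0149 for Tfam and 0.0149 for Nrf1, and 2.67 for the PPAR pair. With samples centred on their median they were 0.0298 for Tfam, 0.0818 for Nrf1 and 1.69 for the ERR pair. Chosen after the data were seen, leaving out animals 69 and 84 gave 0.885 for Esrra, 0.997 for Ppard and 4.67 for the PPAR pair. Leaving out each of the 2 farthest animals singly gave 6.15 to 8.5 for Ppargc1a, 4.22 to 4.58 for Ppargc1b, 0.863 to 1.56 for Esrra, 3.79 to 4.06 for Esrrg, 12.3 to 15.6 for Ppara, 2.33 to 8.15 for Ppard, 0.0 to 0.00744 for Tfam and 0.0 to 0.0298 for Nrf1.

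Among 198 slopes of named genes, 15 changed sign, all with the first 3 principal components: to 0.02 for Pdk4 and 0.06 for Ucp3 on Ppargc1b; to -0.15 for Cidec, -0.05 for Clock, 0.00105 for Mrpl23, 0.01 for Ndufa13, 0.03 for Ndufa2, 0.03 for Ndufb7, -0.01 for Pdgfra, -0.15 for Plin1, 0.04 for Uqcrh and 0.04 for Uqcrq on Ppara; and to 0.01 for Col1a1, 0.01 for Col1a2 and -0.00353 for Myh4 on Ppard. Under that setting 97 of the 198 kept their direction and their side of the threshold, against 166 with the title run and 129 with marker scores. Without the 2 farthest animals 73 lost their call.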
